A study of Homo sapiens with 28 samples.

Results

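The subject here is how the response of Z138 cells to ONC201 differed between a line resistant to the compound and its parental line. Z138 is an established human mantle cell lymphoma line, a culture of malignant B cells, and ONC201 is a small-molecule anticancer compound. The members were the 8 Z138 arrays among the 28 bead arrays of the series, chosen by their labels alone. They fell into 4 groups of 2 arrays: resistant cells with ONC201 at 5 µM for 24 h, resistant cells without it for 24 h (resistant Control), parental ONC201-naive cells with ONC201 at 5 µM for 24 h, and parental cells without it for 24 h (parental Control). Per the labels' protocols, all cultures grew in RPMI medium with serum, and the Control cultures received the DMSO solvent alone. How the resistant line was obtained, whether it is a single clone and whether it was kept in the compound are not given in the sources used here. Nothing in the labels says that the 2 arrays of a group came from separate cultures, so p-values measure only the spread between these arrays, which may be technical.

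The 8 arrays had median signals of 60.9 to 67.1 intensity units and detected 31.8% to 34.8% of their probes. Replicate arrays correlated at r = 0.994 to 0.996 over the genes tested, the parental ONC201 arrays at r = 0.958 to 0.968 with the arrays of the other groups, and all other pairs at r = 0.986 to 0.993. All 8 arrays lay on 1 chip, with the resistant groups at other positions than the parental ones, so group and place on the chip cannot be told apart. Of 9 B-cell markers 6 passed the detection filter (MS4A1, CD79A, CD79B, CD22, SOX11 and CCND1), as did 3 of 14 T and NK cell markers, 2 of 10 myeloid markers and 1 of 11 epithelial and fibroblast markers. The summed B-cell marker signal was 16100 to 18330 units in resistant ONC201, 16220 to 20720 in resistant Control, 16280 to 16990 in parental ONC201 and 15140 to 19240 in parental Control. In bulk samples, fewer cells of a kind and less RNA per cell cannot be told apart. Levels below are log2 normalized signals, and effects are log2 fold changes of ONC201 over Control ± the standard error from limma.

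ONC201 and related compounds are known to bind and activate CLPP, a protease of the mitochondrial matrix, and to trigger the integrated stress response. In that response, kinases phosphorylate the translation factor eIF2, bulk translation slows, and translation of the transcription factor ATF4 increases. ATF4 and its partner CHOP (the product of DDIT3) then raise genes of amino acid supply, redox balance and cell death. The unfolded protein response of the endoplasmic reticulum (ER) is a related programme in which ATF6 and XBP1 raise chaperones and the secretory machinery.

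The comparison asked which effects of ONC201 in parental cells were missing, kept or turned round in resistant cells. It tested the resistant effect minus the parental effect, called the difference below, over 9453 genes with 2 arrays in each of the 4 groups. The difference was called, at an adjusted p under 0.05, for 2886 genes, or 30.5%, of which 1345 (14.2%) were positive and 1541 (16.3%) negative. In resistant cells the effect itself was called for 46 genes (0.487%), with 10 higher (0.106%) and 36 lower (0.381%). At an unadjusted p under 0.05 the resistant count was 1864, with 877 higher (9.28%) and 987 lower (10.4%). In parental cells it was called for 4232 genes (44.8%), with 2158 higher (22.8%) and 2074 lower (21.9%).

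Each of the 4232 parental effects was then placed in a class. An effect was lost if the difference was called against the parental direction, the resistant effect was not called, and less than 0.5 of the parental effect remained. By this rule 2545 effects were lost, of which 1334 were rises (14.1% of the genes tested) and 1211 falls (12.8%). For 1668 genes the difference was not called and neither was the resistant effect, so these effects were undecided: loss was not shown, and neither was its absence. The remaining classes held 10 kept effects, 6 reversed ones, 2 amplified ones and 1 reduced one. Of the lost effects, 2266 belonged to genes detected on all 8 arrays. For 1094 of the 2545 lost effects the 95% interval of the resistant effect lay wholly within 0.5 of the parental effect in either direction. For the rest the interval reached beyond that on the parental side, the other side or both.

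**Figure D1:**
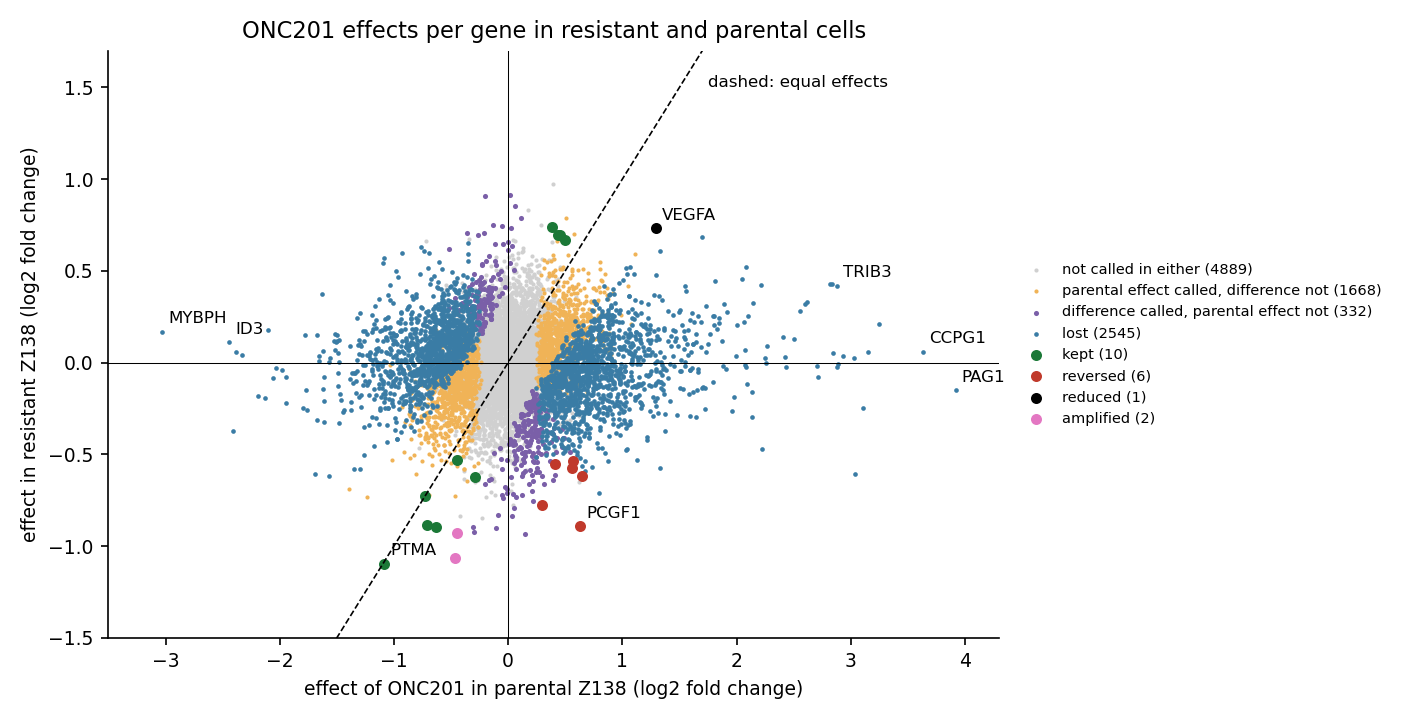
Effect of ONC201 in resistant Z138 (vertical axis) against parental Z138 (horizontal axis) for each of the 9453 genes, as log2 fold changes, coloured by class; the dashed line marks equal effects. The lost effects spread along the horizontal axis from MYBPH (-3.03) to PAG1 (3.92), with resistant effects near 0.

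The share of effects called lost was highest where the parental effect was large. Among genes called with a parental change of at least 2-fold, 313 of 317 rises and 201 of 206 falls were lost, with 3 rises and 4 falls undecided, 1 rise reduced and 1 fall kept. The median share of the parental log2 effect that remained in resistant cells was 0.029 for these rises and 0.024 for these falls. For the rises the middle 50% of genes kept shares of -0.081 to 0.129. The resistant effect had the parental sign in 56.5% of these rises and 55.8% of these falls. Among parental rises under 0.5 on the log2 scale, 35.4% were lost and 525 of 822 were undecided, and the falls of that size gave 36.8%. The median remaining share was 0.022 for these small rises and 0.018 for the small falls. The lost class needs a called difference, which small effects reach less often. Their lower percentage therefore does not show that small effects remained in resistant cells.

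**Figure D2:**
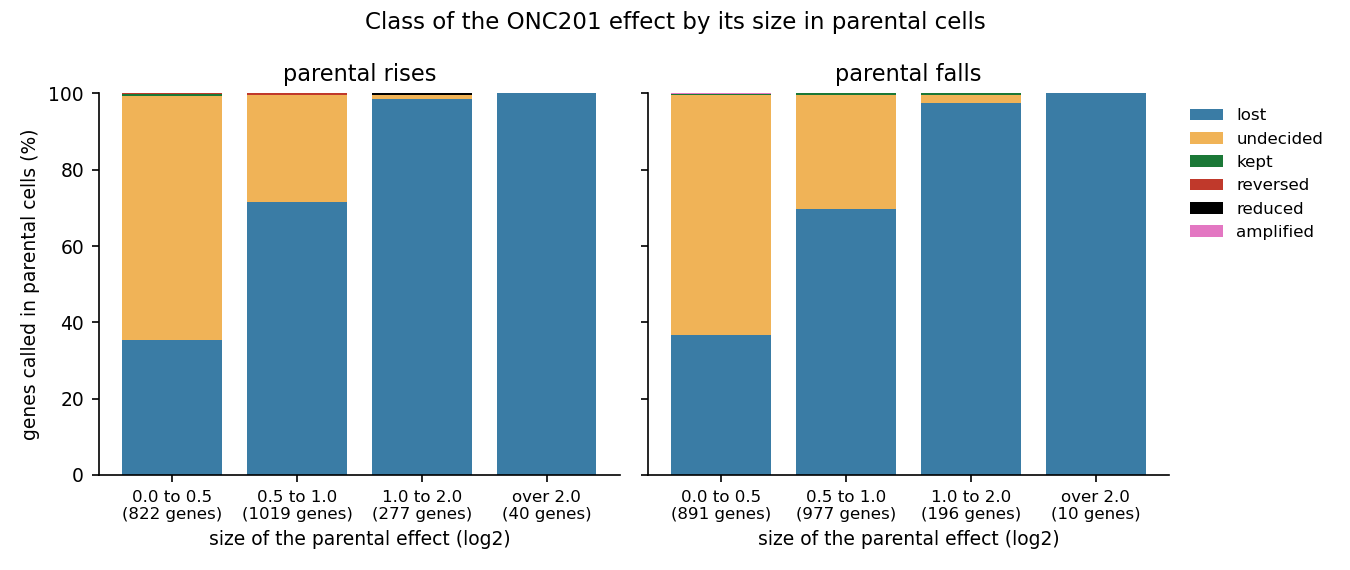
Share of parental effects in each class (percent of genes called in parental cells) by the size of the parental effect, for rises and falls. The lost share is 35.4%, 71.6%, 98.6% and 100% from the smallest to the largest rises, and 36.8%, 69.8%, 97.4% and 100% for the falls.

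Over all 9453 genes, which are not independent replicates, the resistant effects had an SD of 0.218 and the parental effects an SD of 0.519. The slope of the resistant on the parental effects was 0.031 and Pearson's r was 0.074, given as a description. The median effect was 0.001 in resistant and 0.002 in parental cells, as the quantile normalization over all arrays holds it near 0, so a shift of all genes together could not have been seen. Other detected probes of the lost genes gave a difference of the same sign in 702 of 779 cases (90.1%).

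Genes of the integrated stress response were the group with the highest median effect in parental cells. Of 36 genes on this list 30 were measured, and 26 of them were detected on all 8 arrays, with a median difference of -0.96. GDF15, on this list, passed the filter only through the parental ONC201 arrays. In resistant cells 0 were called, and in parental cells 28 rose and 0 fell. The difference was negative and called for 24 of the 30, against 16.3% of all genes, and 23 of these effects were lost. The median effect over the 30 was 0.14 in resistant and 1.06 in parental cells, and their median difference was -1.02, against -0.007 over all genes.

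TRIB3, a pseudokinase raised by ATF4 and CHOP, stood at 10.26 and 10.17 on the resistant ONC201 arrays and at 9.82 and 9.78 on the resistant Control arrays, against 12.90 and 12.84 in parental ONC201 and 10.02 and 9.96 in parental Control. The parental ONC201 arrays stood far above all others, and the resistant ONC201 arrays a little above both pairs of controls. Its effect was 0.42 ± 0.09 in resistant and 2.88 ± 0.09 in parental cells, a difference of -2.46 ± 0.12 (adjusted p = 1.68e-05). DDIT3, which encodes CHOP, had levels of 8.04 and 8.24 in resistant ONC201 and 7.79 and 7.82 in resistant Control, with 10.52 and 10.69 in parental ONC201 and 7.96 and 8.02 in parental Control. Only the parental ONC201 arrays left the range of 7.79 to 8.24, and the difference was -2.29 ± 0.15 (adjusted p = 7.04e-05).

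PPP1R15A encodes the phosphatase subunit GADD34, which reverses eIF2 phosphorylation. It measured 8.03 and 8.12 in resistant ONC201, 7.97 and 8.11 in resistant Control, 11.78 and 11.70 in parental ONC201 and 8.78 and 8.83 in parental Control. The resistant groups overlapped each other and lay below the parental Control. The difference was -2.90 ± 0.13 (adjusted p = 1.08e-05), and untreated resistant cells differed by -0.76 from untreated parental cells (adjusted p = 0.004). DDIT4 and SESN2, which restrain the growth-promoting kinase complex mTORC1, followed the same order of groups. DDIT4 had 9.12 and 9.25 in resistant ONC201, 8.85 and 8.88 in resistant Control, 12.20 and 12.19 in parental ONC201 and 9.64 and 9.55 in parental Control (difference -2.28 ± 0.13, adjusted p = 3.27e-05). SESN2 had 6.63 and 6.62 in resistant ONC201, 6.24 and 6.11 in resistant Control, 8.82 and 8.71 in parental ONC201 and 6.75 and 6.68 in parental Control (difference -1.60 ± 0.13, adjusted p = 0.000232). For both genes the resistant cells with ONC201 remained below even the untreated parental cells.

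**Figure D3:**
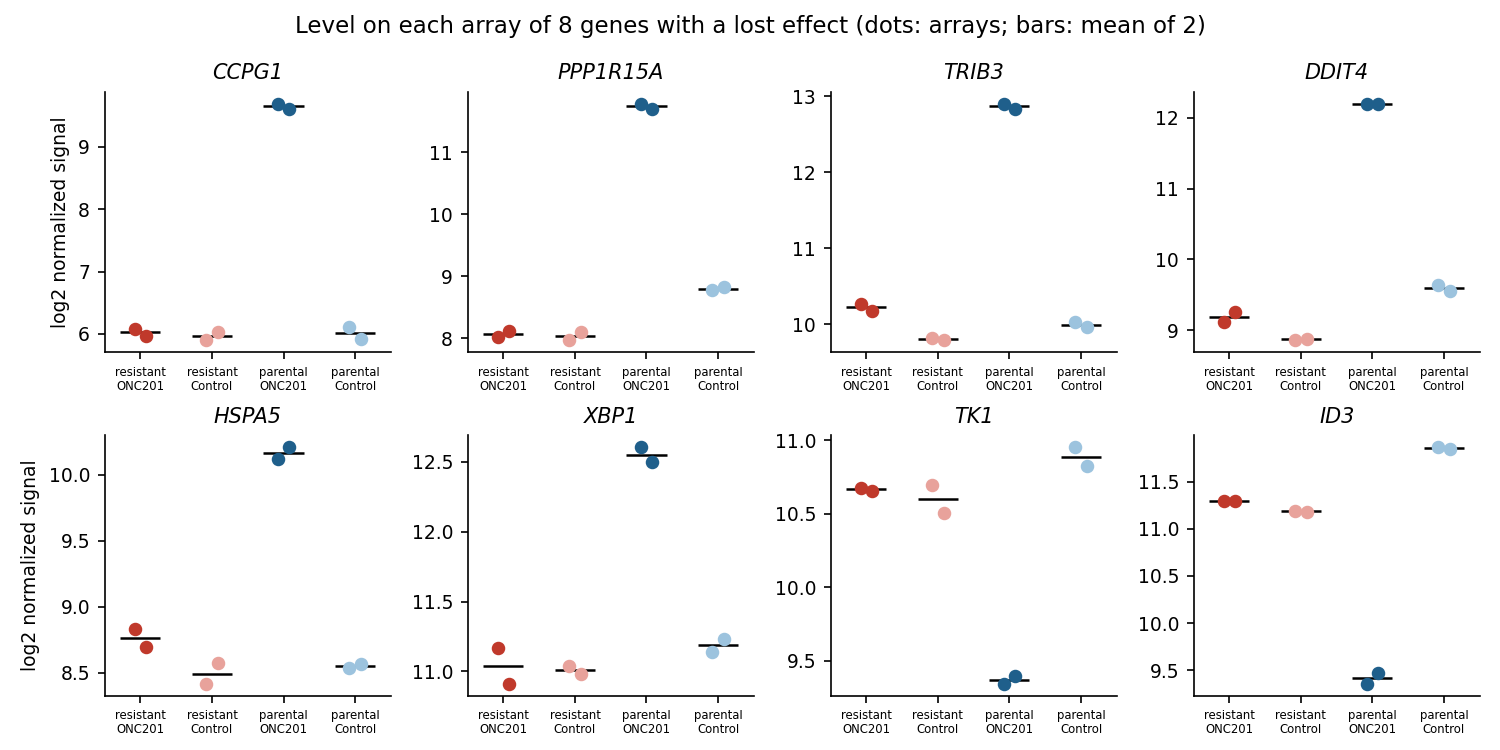
Level on each array (log2 normalized signal; each panel has its own range) of 8 genes with a lost effect, by group; dots are arrays and bars the mean of 2. In every panel the parental ONC201 arrays stand apart from the other 6, above them for CCPG1, PPP1R15A, TRIB3, DDIT4, HSPA5 and XBP1 and below them for TK1 and ID3.

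ATF4 itself was undecided. On the probe used here the effect on its mRNA was 0.15 ± 0.10 in resistant cells, which was not called, and 0.47 ± 0.10 in parental cells, which was, with a difference of -0.32 ± 0.14 that was not called (adjusted p = 0.112). Its 3 detected probes disagreed, since the other two gave differences of 0.06 and -0.92, of which the second passed over all probes (adjusted p = 0.00421). ATF3, a repressor induced by ATF4, lost its rise (7.42 and 7.64 in resistant ONC201 and 7.41 and 7.42 in resistant Control, against 8.86 and 8.99 in parental ONC201 and 7.74 and 7.62 in parental Control; difference -1.14 ± 0.15, adjusted p = 0.00136). CHAC1, which degrades glutathione, stood at 5.15 and 5.01 in resistant ONC201 and 5.27 and 5.51 in resistant Control, with 7.0 and 7.30 in parental ONC201 and 6.33 and 6.14 in parental Control. Every resistant array lay below every parental one, the difference was -1.22 ± 0.19 (adjusted p = 0.00272), and untreated resistant cells differed by -0.85 from parental ones (adjusted p = 0.0139). Neither resistant ONC201 array detected CHAC1. The asparagine synthetase gene ASNS had 12.09 and 12.21 in resistant ONC201 and 11.88 and 11.86 in resistant Control, against 12.82 and 12.89 in parental ONC201 and 12.08 and 11.99 in parental Control. Its resistant effect of 0.28 ± 0.09 was not called (adjusted p = 0.146), its parental rise was 0.82 ± 0.09, and the difference was -0.54 ± 0.13 (adjusted p = 0.0149).

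Part of the list lay above 0 in resistant cells without being called. The resistant effect was positive for 24 of the 30 genes, against 4746 of 9453 overall. Its 95% interval lay above 0 for 12 of the 30, against 9.28% of all genes, and below 0 for 0. Among these 12 were SESN2 (0.45 ± 0.09), TRIB3, DDIT3, DDIT4 and, on the probe used, ASNS. A second ASNS probe, detected on 8 arrays, gave a resistant effect of 0.04 ± 0.13 and a difference of -0.83, and so no such rise. The 17 measured cytosolic tRNA synthetases, enzymes that ATF4 also raises, had a median effect of 0.15 in resistant and 0.52 in parental cells. In that list 12 rose in parental cells and 6 differences were called, all negative, against 16.3% of all genes. WARS1, the tryptophan enzyme of the list, was at 10.33 and 10.31 in resistant ONC201 and 10.37 and 10.21 in resistant Control against 12.63 and 12.72 in parental ONC201 and 10.72 and 10.64 in parental Control (difference -1.96 ± 0.13, adjusted p = 9.91e-05).

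Upstream stretches of 3 of these genes are shown because they hold the composite element that ATF4 binds with C/EBP partners, searched as TGATGNAA on both strands. The sequences are from RefSeq (build GRCh38.p14), 5′ to 3′ on the strand of the gene, and capitals mark the match. CHAC1 lies at chr15:40953241-40953290 (230 to 181 bases before the annotated start), ASNS at chr7:97872449-97872498 on the minus strand (90 to 41 bases before) and ATF3 at chr1:212565197-212565246 (210 to 161 bases before).
CHAC1: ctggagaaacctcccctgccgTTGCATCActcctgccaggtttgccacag
ASNS: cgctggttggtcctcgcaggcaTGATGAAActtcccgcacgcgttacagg
ATF3: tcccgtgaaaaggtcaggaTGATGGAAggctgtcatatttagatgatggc
In windows from 250 bases before to 50 after the start, this element was present in 5 of the 26 stress response genes with a sequence (19.2%), in 2.9% of the 1105 genes with a lost rise, in 1.55% of the 967 with a lost fall and in 1.66% of the 7635 genes tested that had a sequence. It stood in 3.67% of all 27305 promoters of the table. A match is a description of the letters and not of binding.

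The kinases that phosphorylate eIF2 and the phosphatase subunits that reverse it formed a list of 9 measured genes. Of these, 3 differences were negative and called and 1 was positive, against 16.3% and 14.2% of all genes. EIF2AK3, which encodes the ER stress kinase PERK, had 6.51 and 6.70 in resistant ONC201 and 6.46 and 6.86 in resistant Control, against 7.63 and 7.63 in parental ONC201 and 6.98 and 6.84 in parental Control (difference -0.77 ± 0.20, adjusted p = 0.0195). The EIF2AK3 difference was called under 16 of 21 processing alternatives and missed the threshold with either parental ONC201 array left out, with resistant ONC201 replicate 1 or parental Control replicate 2 left out (adjusted p up to 0.0755 over the alternatives). Among the brakes on mTORC1, 5 of 12 differences were negative and called and 1 was positive, against the same shares of all genes. DEPTOR, an inhibitory mTOR partner, was at 5.26 and 5.53 in resistant ONC201 and 5.09 and 5.62 in resistant Control, against 8.12 and 8.33 in parental ONC201 and 5.78 and 5.82 in parental Control (difference -2.39 ± 0.25, adjusted p = 0.000477).

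Genes of the ER had largely lost their rise. Of 27 measured ER chaperones and folding enzymes, 0 were called in resistant cells and 23 rose in parental cells. The difference was called for 19, all of them negative, against 16.3% negative over all genes. Their median effect was 0.04 in resistant and 0.89 in parental cells, and the resistant 95% interval lay above 0 for 3 of 27. HSPA5, the chaperone BiP, measured 8.83 and 8.70 in resistant ONC201 and 8.42 and 8.57 in resistant Control, against 10.12 and 10.21 in parental ONC201 and 8.54 and 8.57 in parental Control (difference -1.34 ± 0.14, adjusted p = 0.000512). The co-chaperone DNAJB9 had 8.64 and 8.46 in resistant ONC201 and 8.61 and 8.54 in resistant Control, with 10.52 and 10.58 in parental ONC201 and 8.26 and 7.97 in parental Control. For DNAJB9 both resistant groups overlapped and lay above the parental Control, although that untreated difference, at 0.46, was not called (adjusted p = 0.0744). DNAJC10, a disulfide reductase of the ER, showed 8.57 and 8.58 in resistant ONC201 and 8.69 and 8.81 in resistant Control against 10.13 and 10.12 in parental ONC201 and 8.53 and 8.54 in parental Control (difference -1.75 ± 0.12, adjusted p = 0.000114).

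Of 19 measured sensors of the unfolded protein response and factors of ER-associated degradation, 0 were called in resistant and 16 rose in parental cells. The difference was called for 13, all negative, against 16.3% negative over all genes, and the median difference of the list was -0.92. XBP1, the transcription factor activated by the sensor IRE1, had 11.17 and 10.91 in resistant ONC201 and 11.04 and 10.98 in resistant Control, against 12.60 and 12.50 in parental ONC201 and 11.14 and 11.23 in parental Control. The resistant groups overlapped, and the difference was -1.34 ± 0.15 (adjusted p = 0.000796). A second XBP1 probe gave a difference of -1.41. CCPG1, a receptor that delivers ER to autophagy, stood at 6.08 and 5.97 in resistant ONC201 and 5.90 and 6.03 in resistant Control, with 9.69 and 9.61 in parental ONC201 and 6.11 and 5.93 in parental Control. That was a difference of -3.57 ± 0.15 (adjusted p = 8.99e-06), with all 6 arrays other than parental ONC201 between 5.90 and 6.11. SELENOS and EDEM2, factors of ER-associated degradation, had differences of -1.39 ± 0.13 and -1.47 ± 0.13.

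The next 4 genes of these lists are shown for their upstream stretches, with capitals on the conserved parts of the ER stress response element (ERSE), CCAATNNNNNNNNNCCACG, which ATF6 binds together with NF-Y, and in HYOU1 on the unfolded protein response element TGACGTGG. The sequences are again RefSeq GRCh38.p14, 5′ to 3′ on the strand of the gene: HSPA5 at chr9:125241374-125241423 on the minus strand, XBP1 at chr22:28800590-28800639 on the minus strand, HSP90B1 at chr12:103930200-103930349 and HYOU1 at chr11:119057361-119057410 on the minus strand. HSP90B1 holds the element on both strands.
HSPA5: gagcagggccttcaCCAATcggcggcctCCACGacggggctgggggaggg
XBP1: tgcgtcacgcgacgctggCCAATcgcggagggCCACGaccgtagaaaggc
HSP90B1: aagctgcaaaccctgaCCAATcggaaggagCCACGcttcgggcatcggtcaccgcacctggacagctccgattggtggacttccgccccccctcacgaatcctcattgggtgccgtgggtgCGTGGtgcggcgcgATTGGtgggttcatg
HYOU1: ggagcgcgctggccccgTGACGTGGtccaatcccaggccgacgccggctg
ERSE was present in 6 of the 26 ER chaperone genes with a sequence (23.1%), in 9 of the 1105 genes with a lost rise (0.814%), in 0 of the 967 with a lost fall and in 13 of all 7635 (0.17%). The shorter element stood in 3 of the 26 chaperone genes (11.5%), in 2.26% of the lost rises, 0.31% of the lost falls and 0.969% of all genes tested. In the whole promoter table the shares were 0.0806% and 0.795%. HSP90B1, the ER chaperone GRP94, which was chosen for its 2 matches, had 12.37 and 12.27 in resistant ONC201 and 12.18 and 12.18 in resistant Control, against 13.32 and 13.17 in parental ONC201 and 12.15 and 12.12 in parental Control (difference -0.97 ± 0.13, adjusted p = 0.00153). HYOU1, an ER chaperone of the HSP70 family, had 7.24 and 7.35 in resistant ONC201 and 7.31 and 7.08 in resistant Control, against 9.03 and 8.89 in parental ONC201 and 7.33 and 7.36 in parental Control (difference -1.52 ± 0.15, adjusted p = 0.000441).

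Genes of transport between ER and Golgi gave the same picture, with 22 of 32 differences called, all negative, against 16.3% negative over all genes. There were 0 calls in resistant cells and 27 rises in parental cells. The COPII coat gene SEC24D had 6.66 and 6.56 in resistant ONC201 and 6.39 and 6.84 in resistant Control, against 8.87 and 8.68 in parental ONC201 and 6.50 and 6.53 in parental Control (difference -2.26 ± 0.21, adjusted p = 0.000305). The COPI coat genes COPG1, ARCN1 and COPB1 had differences of -1.29 ± 0.15, -1.26 ± 0.13 and -1.25 ± 0.14. In this list the resistant interval lay below 0 for 8 of 32 genes and above it for 3, against 10.4% and 9.28% of all genes.

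Of 27 measured autophagy and lysosome genes, 8 differences were called, all negative, against 16.3% negative over all genes, while 15 genes were called neither in parental cells nor for the difference, and 4 parental effects were undecided. MAP1LC3B, which encodes the autophagosome protein LC3B, measured 7.97 and 7.95 in resistant ONC201 and 8.16 and 8.07 in resistant Control, against 10.45 and 10.70 in parental ONC201 and 8.46 and 8.42 in parental Control (difference -2.30 ± 0.15, adjusted p = 7.04e-05). For the cargo receptor SQSTM1 the difference was -0.78 ± 0.13, with a resistant effect of 0.34 ± 0.09 that was not called (adjusted p = 0.111) beside a parental rise of 1.11 ± 0.09.

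Among death receptors and their adaptors, 4 of 7 differences were called, all negative, against 16.3% negative over all genes. Of the 7 genes, 5 were detected on all 8 arrays. FAS, among the 4 called, was detected on the parental ONC201 arrays alone and passed the filter only through them, which favours a negative difference. TNFRSF10B, the TRAIL receptor DR5, had 8.84 and 8.88 in resistant ONC201 and 8.82 and 8.91 in resistant Control, against 9.75 and 9.70 in parental ONC201 and 8.68 and 8.79 in parental Control. The resistant groups overlapped, and the difference was -1.0 ± 0.13 (adjusted p = 0.00119). TNFRSF1A, a receptor for TNF, had a difference of -1.86 ± 0.16 and the adaptor TRADD one of -0.95 ± 0.18. In the BCL2 family 4 of 12 differences were negative and called and 1 was positive. Together that is 5 of 12, near the 30.5% called over all genes. HRK, a BH3-only death activator, had 8.31 and 8.14 in resistant ONC201 and 8.08 and 8.0 in resistant Control against 9.22 and 8.94 in parental ONC201 and 7.63 and 7.89 in parental Control (difference -1.13 ± 0.19, adjusted p = 0.00339). The survival gene BCL2 had 10.45 and 10.53 in resistant ONC201 and 10.72 and 10.68 in resistant Control, against 11.46 and 11.65 in parental ONC201 and 10.76 and 10.84 in parental Control (difference -0.96 ± 0.14, adjusted p = 0.00182). MCL1, another survival gene, was not called in either line (0.10 ± 0.10 in resistant, -0.02 ± 0.10 in parental).

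Lost falls included genes of cell division, of protein folding in the cytosol, of lipid synthesis and of B-cell identity. Of 34 measured genes of DNA replication, 0 were called in resistant cells, while 30 fell and 1 rose in parental cells. The difference was positive and called for 26 and negative for 1 (the primase subunit PRIM1), against 14.2% and 16.3% of all genes, and the median effect was 0.05 in resistant and -0.62 in parental cells. TK1, the thymidine kinase of dividing cells, had 10.68 and 10.66 in resistant ONC201 and 10.70 and 10.51 in resistant Control, against 9.34 and 9.39 in parental ONC201 and 10.95 and 10.82 in parental Control (difference 1.59 ± 0.14, adjusted p = 0.000279). CCNE1, the cyclin of S-phase entry, had 7.56 and 7.57 in resistant ONC201 and 7.36 and 7.47 in resistant Control, against 5.89 and 5.29 in parental ONC201 and 7.26 and 7.28 in parental Control (difference 1.82 ± 0.24, adjusted p = 0.00136). The helicase subunit gene MCM4 and the ribonucleotide reductase gene RRM2 had differences of 1.19 ± 0.12 and 1.38 ± 0.21.

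Stretches upstream of 2 replication genes, chosen for their matches, show the E2F elements searched, TTTCGCGC and TTTGGCGC on both strands. They are from RefSeq GRCh38.p14, 5′ to 3′ on the strand of the gene, with matches in capitals: MCM6 at chr2:135876519-135876608 on the minus strand and POLA2 at chr11:65261887-65261936. In MCM6 each run of capitals is 1 match of the second element overlapped by a match of the first on the other strand.
MCM6: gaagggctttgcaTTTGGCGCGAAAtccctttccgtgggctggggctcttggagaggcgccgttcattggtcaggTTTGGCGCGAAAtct
POLA2: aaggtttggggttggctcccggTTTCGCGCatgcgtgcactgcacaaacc
Each element was present in 5 of the 29 replication genes with a sequence (17.2%). The first stood in 1.09% of the lost rises, 2.17% of the lost falls and 1.26% of all genes tested, and the second in 0.362%, 2.48% and 1.14%. Over the whole promoter table the shares were 0.546% and 0.659%. POLA2, a subunit of DNA polymerase alpha, had 9.90 and 9.83 in resistant ONC201 and 9.71 and 9.51 in resistant Control, against 9.12 and 8.99 in parental ONC201 and 9.64 and 9.75 in parental Control (difference 0.89 ± 0.15, adjusted p = 0.0033). MCM6, a helicase subunit, had a difference of 0.46 ± 0.13 (adjusted p = 0.0324), which was called under 13 of 21 alternatives (adjusted p up to 0.101) and lost its call in 6 of the 8 fits without 1 array.

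Of 40 genes of mitosis, 20 differences were called, all positive, against 14.2% positive over all genes. There were 0 calls in resistant cells and 30 falls and 1 rise in parental cells. BIRC5, which encodes the chromosomal passenger survivin, had 11.47 and 11.17 in resistant ONC201 and 11.10 and 11.18 in resistant Control, against 10.31 and 10.20 in parental ONC201 and 11.23 and 10.96 in parental Control (difference 1.03 ± 0.19, adjusted p = 0.00506). The mitotic kinase gene CDK1 had a difference of 0.84 ± 0.16 and its cyclin CCNB1 one of 0.80 ± 0.17. The proliferation marker MKI67 stood at 7.59 and 7.87 in resistant ONC201 and 7.82 and 7.78 in resistant Control, against 7.0 and 7.07 in parental ONC201 and 7.66 and 7.69 in parental Control (difference 0.58 ± 0.15, adjusted p = 0.0233). The call for MKI67 held under 13 of 21 alternatives (adjusted p up to 0.0826) and in 2 of the 8 fits without 1 array.

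MYC was not called in either line. It had 12.96 and 12.97 in resistant ONC201 and 12.95 and 12.82 in resistant Control, with 12.99 and 12.98 in parental ONC201 and 13.15 and 13.06 in parental Control. MXD4 and MXD1, which encode repressors that compete with MYC for its partner MAX, lost rises, with differences of -1.55 ± 0.19 and -1.40 ± 0.14. Of 26 genes of ribosome assembly in the nucleolus 11 differences were called, all positive, against 14.2% positive over all genes. Among them was NOP16 at 0.98 ± 0.14.

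Cytosolic heat shock genes had the lowest parental median of the lists drawn below, -0.70, beside 0.00 in resistant cells. Of 16 measured, 0 were called in resistant and 11 fell in parental cells. The difference was called for 10, all positive, against 14.2% positive over all genes. HSPA1B and HSPA1A are nearly identical, so the HSPA1B probe may read both. It had 10.81 and 10.84 in resistant ONC201 and 10.70 and 10.66 in resistant Control, against 8.15 and 8.32 in parental ONC201 and 9.32 and 9.30 in parental Control. Here the untreated lines already differed, by 1.37 ± 0.09 (adjusted p = 0.000127), and the difference of the effects was 1.21 ± 0.13 (adjusted p = 0.00059). DNAJA1, a partner of HSP70 chaperones, had a difference of 0.96 ± 0.16 with untreated levels that were not called apart. In sterol and fatty acid synthesis 9 of 22 differences were positive and 1 negative, against 14.2% and 16.3% of all genes. DHCR7, the last enzyme of cholesterol synthesis, the feedback regulator INSIG1 and the fatty acid synthase FASN had differences of 1.48 ± 0.19, 1.17 ± 0.17 and 1.02 ± 0.14.

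Nuclear genes for mitochondrial proteins fell into separate lists. Of 45 subunits of oxidative phosphorylation 6 differences were called, all positive, against 14.2% positive over all genes, and 14 of the 20 parental falls were undecided. UQCRB, a subunit of complex III, had 9.55 and 9.68 in resistant ONC201 and 9.57 and 9.68 in resistant Control, against 8.16 and 8.48 in parental ONC201 and 9.48 and 9.54 in parental Control (difference 1.18 ± 0.17, adjusted p = 0.002). Of 49 mitochondrial ribosomal protein genes 15 differences were positive and 2 negative, against 14.2% and 16.3% of all genes, with 1 fall in resistant cells and 25 falls and 2 rises in parental cells. MRPL17 had a difference of 1.34 ± 0.14. The mRNA of CLPP, the target protease, stood at 9.88 and 9.91 in resistant ONC201 and 9.85 and 10.03 in resistant Control, with 9.66 and 9.56 in parental ONC201 and 9.89 and 9.98 in parental Control. Its parental effect of -0.32 ± 0.10 was called (adjusted p = 0.0278) and the difference of 0.28 ± 0.14 was not (adjusted p = 0.167), so the effect was undecided. Untreated CLPP levels differed by 0.01 ± 0.10. CLPX, its partner, had a difference of -0.43 ± 0.13 (adjusted p = 0.0395), with an effect of -0.23 ± 0.09 in resistant and 0.20 ± 0.09 in parental cells, neither of them called. The difference for CLPX was called under 11 of 21 alternatives, with adjusted p = 0.0528 with the replicate block and up to 0.126 without resistant Control replicate 2, and lost its call in 7 of the 8 fits without 1 array. The mitochondrial protease LONP1 had 11.12 and 11.06 in resistant ONC201 and 11.07 and 10.95 in resistant Control, against 12.27 and 12.11 in parental ONC201 and 11.32 and 11.06 in parental Control (difference -0.92 ± 0.16, adjusted p = 0.00451). DRD2, a dopamine receptor proposed as another ONC201 target, had no probe that passed the detection filter.

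**Figure D4:**
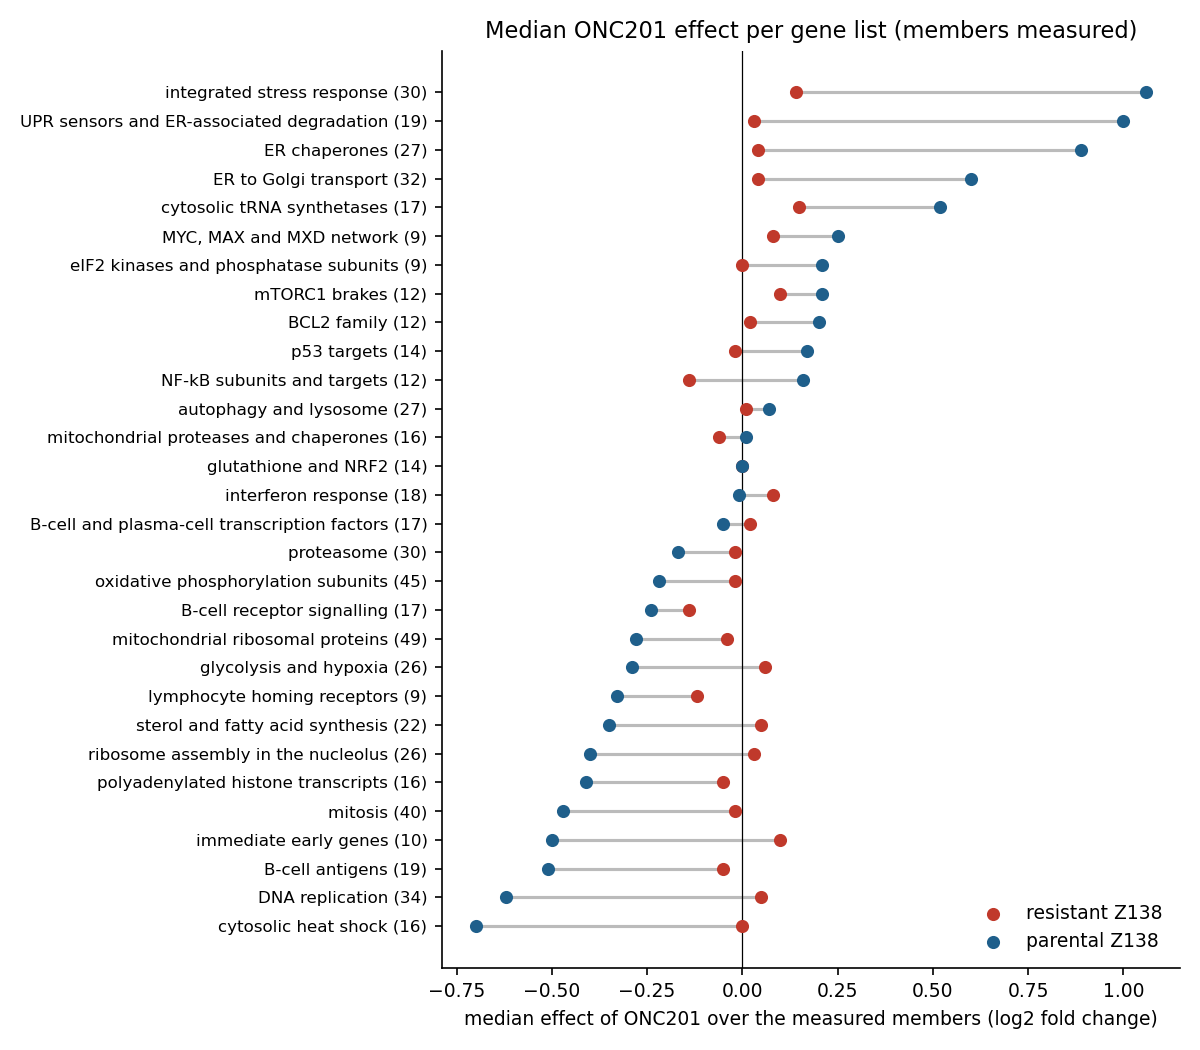
Median effect of ONC201 (log2 fold change) over the measured members of each gene list with at least 9 measured members, in resistant and parental Z138, with the number of members in brackets. The parental medians run from -0.70 for cytosolic heat shock to 1.06 for the integrated stress response, and the resistant medians from -0.14 to 0.15.

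In the B-cell antigen list 11 of 19 differences were positive and called and 3 negative, against 14.2% and 16.3% of all genes. CD52, a surface antigen of lymphocytes, had 8.82 and 9.04 in resistant ONC201 and 8.94 and 8.98 in resistant Control, against 6.63 and 7.05 in parental ONC201 and 8.87 and 8.88 in parental Control (difference 2.01 ± 0.20, adjusted p = 0.000441). VPREB3, related to the surrogate light chain, had 10.84 and 11 in resistant ONC201 and 11.09 and 11.04 in resistant Control, against 8.78 and 9.13 in parental ONC201 and 10.56 and 10.59 in parental Control (difference 1.48 ± 0.18, adjusted p = 0.00093). MS4A1, the antigen CD20, gave a difference of 1.53 ± 0.21 (adjusted p = 0.00149) on the probe used, but only 0.21 (adjusted p = 0.309) on its other detected probe. Of 17 transcription factors of B cells and plasma cells, 4 differences were negative and 2 positive, near the shares of all genes (16.3% and 14.2%). PRDM1 and IRF4, which act in plasma cell differentiation, lost rises, with differences of -1.42 ± 0.16 and -0.96 ± 0.14.

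ID3, a repressor of the E proteins of B cells, had 11.29 and 11.30 in resistant ONC201 and 11.19 and 11.18 in resistant Control, against 9.36 and 9.47 in parental ONC201 and 11.86 and 11.85 in parental Control. The untreated resistant cells differed by -0.67 from parental ones (adjusted p = 0.00473), the effect of ONC201 in resistant cells was 0.11 ± 0.09, and the difference was 2.56 ± 0.12 (adjusted p = 1.21e-05). SOX11, a transcription factor typical of mantle cell lymphoma, had 9.92 and 9.80 in resistant ONC201 and 10.08 and 10.07 in resistant Control, against 10.68 and 10.59 in parental ONC201 and 9.50 and 9.71 in parental Control (difference -1.25 ± 0.14, adjusted p = 0.000795). CCND1 encodes cyclin D1, which the chromosomal translocation typical of mantle cell lymphoma drives. It had 11.86 and 11.80 in resistant ONC201 and 11.82 and 11.62 in resistant Control, against 11.60 and 11.59 in parental ONC201 and 12.00 and 12.01 in parental Control (difference 0.53 ± 0.14, adjusted p = 0.0204). The CCND1 difference was called under 16 of 21 alternatives (adjusted p up to 0.0691) and missed the threshold with either parental ONC201 array, resistant ONC201 replicate 1 or resistant Control replicate 2 left out.

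In B-cell receptor signalling, 4 of 17 differences were positive and called and 2 negative, near the 14.2% and 16.3% of all genes. PAG1, a membrane adaptor that restrains Src kinases, had 5.63 and 5.66 in resistant ONC201 and 5.71 and 5.88 in resistant Control, against 9.38 and 9.23 in parental ONC201 and 5.47 and 5.30 in parental Control. Its difference of -4.07 ± 0.15 (adjusted p = 8.99e-06) was the largest named here, on a probe detected on 7 of the 8 arrays. The phosphatase gene PTPN6 and the kinase gene PRKCB had lost falls, with differences of 1.54 ± 0.15 and 1.4 ± 0.15.

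Among genes detected on all 8 arrays, the largest negative differences after CCPG1 and PPP1R15A included NIBAN1 (-2.80 ± 0.12), a stress-induced gene, the kinase gene ALPK2 (-2.80 ± 0.13), the semaphorin co-receptor PLXNA1 (-2.72 ± 0.14), the glycine transporter SLC6A9 (-2.38 ± 0.21) and ASS1 (-2.37 ± 0.15), an enzyme of arginine synthesis. The read-through gene BORCS8-MEF2B had a difference of -2.69 ± 0.17, and its probe may also read its neighbour MEF2B. ASS1 had 8.82 and 9.02 in resistant ONC201 and 8.86 and 8.72 in resistant Control, against 12.04 and 12.12 in parental ONC201 and 9.61 and 9.55 in parental Control. Both resistant groups lay below the parental Control, with -0.79 between the untreated lines (adjusted p = 0.00551). The largest positive difference belonged to MYBPH, a myosin-binding protein gene, with 9.48 and 9.41 in resistant ONC201 and 9.32 and 9.23 in resistant Control, against 6.96 and 7.0 in parental ONC201 and 10.00 and 10.03 in parental Control (3.20 ± 0.12, adjusted p = 8.99e-06). After it came ID3, the myosin light chain gene MYL4 (2.37 ± 0.20), CD52, the actin-binding TMSB15A (2.00 ± 0.14), the histone gene H2AC17 (1.98 ± 0.21), the lysophospholipid receptor gene S1PR4 (1.94 ± 0.15), LHX2, CCNE1 and H2BC9.

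Some genes were detected in parental ONC201 cells alone. Of the 9453 genes tested, 69 were such genes with a called difference, and 26 with a called difference were undetected only there. The 69 passed the detection filter through the parental ONC201 arrays alone, so the filter favoured a rise there. The counts of 69 and 26 are therefore not a comparison of rises with falls. For the brightest of these 69 genes, only a lower bound on the parental fold can be given, against the lowest signal among detected probes. The stress cytokine GDF15 was at least 3.77-fold higher in parental ONC201 than in parental Control, the autophagy gene WIPI1 at least 4.33-fold, the kinase gene FYN at least 6.07-fold and LHX3, a homeobox gene, at least 4-fold. That none of the 4 resistant arrays detected any of these 4 genes follows from how they were chosen and is no separate result. Conversely DEPP1, HES2, AFF3 and SPR were chosen for detection on all resistant arrays and both parental Control arrays and on neither parental ONC201 array. Their falls in parental cells were at least 4.12-fold, 3.01-fold, 2.65-fold and 2.58-fold.

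Kept effects were few. The class required a call in both lines in one direction and no called difference, and it held 10 genes, of which 7 were detected on all 8 arrays. With any 1 of the 8 arrays left out, 0 resistant effects were called and so 0 were kept or reversed. PTMA, which encodes the histone-binding protein prothymosin alpha, had 9.45 and 9.21 in resistant ONC201 and 10.28 and 10.58 in resistant Control, against 9.31 and 9.25 in parental ONC201 and 10.22 and 10.51 in parental Control. The treated arrays of both lines lay about equally below their controls, and PTMA was the only gene with a parental change of 2-fold or more that was kept (difference -0.01 ± 0.20, adjusted p = 0.974). The 95% interval of its fall was -1.42 to -0.77 in resistant and -1.41 to -0.76 in parental cells. SAC3D1, linked to the centrosome, had 9.64 and 9.76 in resistant ONC201 and 10.64 and 10.53 in resistant Control, against 10.11 and 9.78 in parental ONC201 and 10.57 and 10.74 in parental Control. Further kept falls were those of LOC644936 (-0.73 in both lines), of AHDC1 (-0.90 in resistant and -0.63 in parental cells, detected on 5 arrays), of the transcription factor gene ZNF143 (-0.53 ± 0.08 in resistant, -0.45 ± 0.08 in parental) and the ribosomal RNA modifier TSR3 (-0.62 ± 0.10 and -0.29 ± 0.10). ECI1, an enzyme of fatty acid oxidation, had 10.15 and 10.15 in resistant ONC201 and 9.44 and 9.47 in resistant Control, against 10.01 and 9.94 in parental ONC201 and 9.64 and 9.42 in parental Control. SPRYD3 rose by 0.74 ± 0.11 in resistant and 0.39 ± 0.11 in parental cells. The kept rises of TAGLN and GDPD4 rested on probes detected on 4 and 2 arrays.

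The 6 reversed effects were all rises in parental cells and falls in resistant ones, where 36 of the 46 resistant calls were falls. By the 95% interval of the resistant effect, reversal went both ways, with 201 parental rises and 187 parental falls. PCGF1, a Polycomb group gene, had 7.92 and 8.15 in resistant ONC201 and 8.86 and 8.99 in resistant Control, against 9.49 and 9.49 in parental ONC201 and 8.83 and 8.89 in parental Control (difference -1.52 ± 0.15, adjusted p = 0.000406). The untreated levels of both lines overlapped, with the treated resistant arrays below them and the treated parental arrays above. ACYP2, an acylphosphatase gene, had 6.23 and 6.13 in resistant ONC201 and 6.81 and 6.79 in resistant Control, against 7.21 and 7.16 in parental ONC201 and 6.47 and 6.61 in parental Control (difference -1.27 ± 0.13). The others were CNOT3 (difference -1.13 ± 0.13), a subunit of the deadenylase complex CCR4-NOT, LTAP1 (-1.10 ± 0.12), GATAD2B (-1.07 ± 0.15), a subunit of the NuRD chromatin complex, and ALG5 (-0.96 ± 0.13), an enzyme of N-glycan assembly. A second detected probe of LTAP1 gave a resistant effect of 0.01 and so no reversal.

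VEGFA, the angiogenic factor raised by ATF4 and by hypoxia, was the 1 reduced effect. It had 6.58 and 6.93 in resistant ONC201 and 6.04 and 6.0 in resistant Control, against 7.58 and 7.59 in parental ONC201 and 6.37 and 6.21 in parental Control. Both treated pairs lay above their controls, with an effect of 0.73 ± 0.12 in resistant and 1.29 ± 0.12 in parental cells, and the difference of -0.56 ± 0.18 was called (adjusted p = 0.0432). Its resistant effect stood at the threshold, and a second VEGFA probe, detected on 5 arrays, gave 0.61 in resistant and 0.71 in parental cells. The amplified falls were those of the zinc finger gene MAZ (-1.06 ± 0.13 in resistant, -0.46 ± 0.13 in parental) and of SSBP3 (-0.93 ± 0.09 and -0.45 ± 0.09). Other detected probes of these genes gave resistant effects of 0.07 and -0.16 for MAZ and -0.24 for SSBP3, none of them called. Over 21 alternatives the difference was called in 10 for VEGFA (adjusted p up to 0.14), 12 for MAZ (up to 0.116) and 13 for SSBP3 (up to 0.161), and it lost its call in 7, 6 and 6 of the 8 fits without 1 array.

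**Figure D5:**
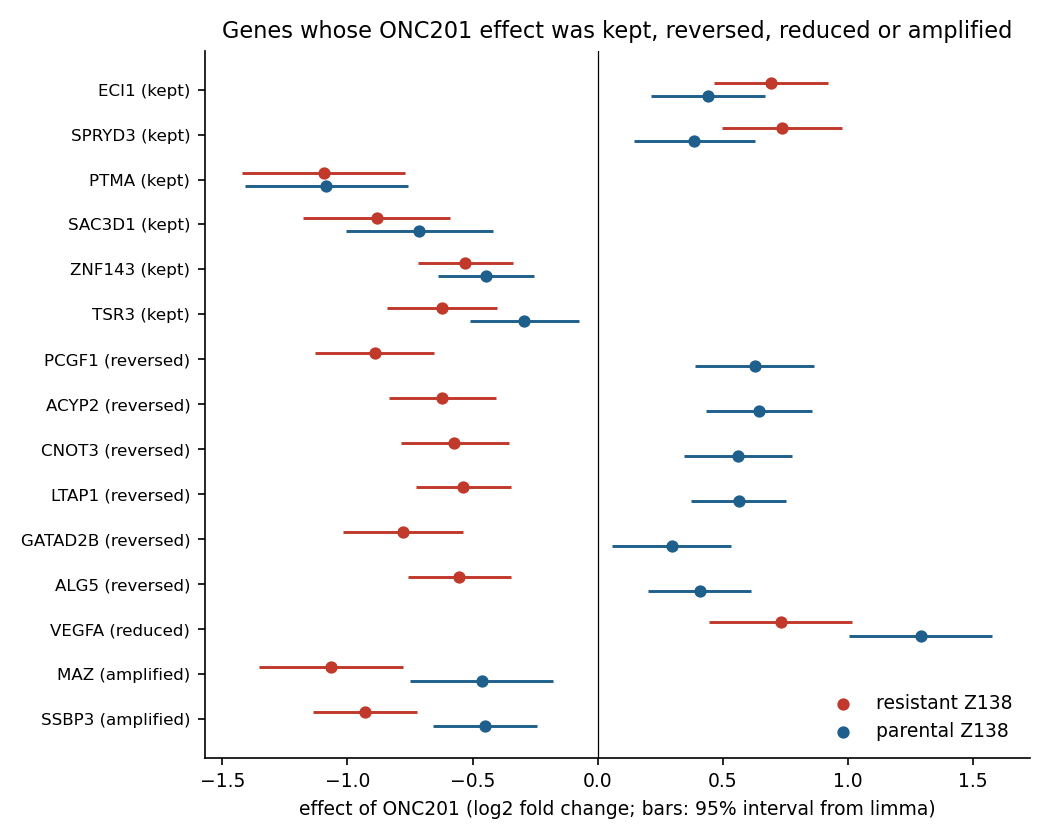
Effect of ONC201 (log2 fold change, with the 95% interval from limma) in resistant and parental Z138 for the genes with an official symbol detected on all 8 arrays whose effect was kept, reversed, reduced or amplified. PTMA has nearly the same effect in both lines, at -1.09 in resistant and -1.08 in parental cells, and the 6 reversed genes lie on opposite sides of 0.

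The strictness of the resistant call decides how many effects fall in these small classes. A looser rule counted a resistant effect as moved once its own unadjusted 95% interval excluded 0. By that rule 381 parental effects were kept (9%) and 388 reversed (9.17%), while 2163 stayed lost. Over all genes tested the interval lay above 0 for 9.28% and below 0 for 10.4%, near these shares. Among all 4232 parental effects, the resistant interval lay on the parental side of 0 for 512 (12.1%) and on the other side for 388 (9.17%). With a parental change of 2-fold or more, it lay on the parental side for 72 genes and on the other side for 29.

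The largest undecided rises were those of N4BP2L1 (0.59 ± 0.13 in resistant, 1.11 ± 0.13 in parental), PCNX1 (0.42 ± 0.15 and 1.05 ± 0.15) and the tRNA export receptor XPOT (0.38 ± 0.15 and 0.92 ± 0.15). The largest undecided falls were those of LSP1 (-0.69 ± 0.25 in resistant, -1.39 ± 0.25 in parental), IGFBP4 (-0.73 ± 0.17 and -1.23 ± 0.17) and the tubulin gene TUBB4A (-0.53 ± 0.13 and -1.02 ± 0.13). In each of these 6 genes the resistant effect had the parental sign and was smaller, and the difference missed the threshold.

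For 332 genes the difference was called although the parental effect was not. The effects of the lines had opposite signs in 308 of them, which this choice of genes favours, and the resistant effect was called in 27. At an unadjusted p under 0.05 the parental effect passed in 118 of the 332 and the resistant effect in 283. CLOCK, a circadian transcription factor gene, had 6.69 and 6.85 in resistant ONC201 and 5.69 and 6.03 in resistant Control, against 5.56 and 5.76 in parental ONC201 and 5.63 and 5.66 in parental Control (difference 0.90 ± 0.19, adjusted p = 0.00884). PRKDC, the catalytic subunit of a DNA repair kinase, had 10.58 and 10.67 in resistant ONC201 and 9.66 and 9.77 in resistant Control, against 9.57 and 9.44 in parental ONC201 and 9.90 and 9.52 in parental Control (difference 1.12 ± 0.19, adjusted p = 0.00339). Both stood higher on the treated resistant arrays than on the other 6. PTMS, a relative of PTMA, and the splicing-linked LENG8 showed the opposite, with resistant falls of -0.90 ± 0.11 and -0.76 ± 0.10 and parental effects of -0.10 ± 0.11 and 0.22 ± 0.09.

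Before treatment, the resistant and parental lines differed in 370 genes (3.91%), of which 144 were higher (1.52%) and 226 lower (2.39%) in resistant cells. This comparison uses the same Control arrays as the effects above, so its values are only set beside them. Of the 2545 lost effects, 171 belonged to genes with a called untreated difference, 89 in the direction of the parental ONC201 effect and 82 against it. In the stress response list 5 genes were lower and 1 higher in untreated resistant cells. The lower ones were PPP1R15A, DDIT4, SESN2, CHAC1 and VLDLR, and the higher one was CTH, an enzyme of cysteine synthesis, with 5.14 and 5.32 in resistant ONC201 and 5.13 and 5.21 in resistant Control, against 7.82 and 7.80 in parental ONC201 and 4.66 and 4.66 in parental Control. CTH was detected on both parental ONC201 arrays and on 1 resistant ONC201 array, and its parental rise was at least 5.52-fold. No Control array of either line detected CTH, so its untreated difference compares signals below detection. Immediate early genes, which respond within minutes to growth signals, were lower in untreated resistant cells in 6 of 10 cases. EGR1 and FOS, named after their values were seen, encode transcription factors of this group. EGR1 had 6.80 and 6.65 in resistant ONC201 and 6.74 and 6.57 in resistant Control, against 10.48 and 10.53 in parental ONC201 and 10.67 and 10.63 in parental Control, an untreated difference of -4.00 ± 0.10 (adjusted p = 5.8e-07). FOS was detected on no resistant array and had 7.96 and 8.10 in parental ONC201 and 7.69 and 7.70 in parental Control. ONC201 had no called effect on EGR1 or FOS in resistant cells. DUSP2, a phosphatase of this group, had 8.21 and 7.96 in resistant ONC201 and 8.0 and 7.73 in resistant Control, against 8.50 and 8.21 in parental ONC201 and 9.36 and 8.95 in parental Control. The levels of DUSP2 thus met at 24 h with ONC201 more closely than without it, and its difference was 1.02 ± 0.24 (adjusted p = 0.0147), not called without resistant Control replicate 2 or parental ONC201 replicate 2. CDK6, a kinase that pairs with cyclin D, had 4.84 and 4.50 in resistant ONC201 and 4.42 and 4.58 in resistant Control, against 7.80 and 7.71 in parental ONC201 and 6.19 and 6.40 in parental Control. CDK6 was detected on no resistant array and on all 4 parental ones.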

How the data were processed

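RNA of the 8 Z138 arrays was measured on Illumina bead arrays, with 47231 probes. The authors deposited a table of probe intensities without background correction or normalization, per the file headers, each with a detection p-value that the authors' software gave against the negative controls. The software was GenomeStudio, per the submitters' processing notes. A table with background-subtracted intensity values and the authors' normalized values of 38220 probes, also deposited, served as alternatives. The normalization method is not given in the sources used here.

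From the uncorrected intensities, all 28 arrays were background-corrected, quantile-normalized and log2-transformed together with neqc in limma 3.58.1 (R 4.3.3), with an offset of 16 and negative controls inferred from the detection p-values. Kept probes had a detection p-value under 0.01 on at least 2 of the 8 arrays. Symbols came from the platform annotation (27004 probes with 1 symbol, 4 with several, 20223 with none), of which 26970 were updated through the RefSeq gene table. The probe with the highest mean over all arrays stood for its gene, which left 9453 genes. One linear model per gene over the 8 arrays and 4 groups, with 4 residual degrees of freedom, gave the resistant effect, the parental effect, their difference and the untreated difference. Adjusted p is that of limma's moderated test, two-sided, with Benjamini-Hochberg adjustment over the 9453 genes, and the threshold was 0.05. The number of arrays limits the precision. The code was tested on simulated data.

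The genes named were a panel of ONC201, stress response and lymphoma genes, the 10 largest called differences in each direction among genes detected on all 8 arrays, the 6 largest of each class and direction, up to 4 members of each list with the largest difference, and up to 4 genes detected or undetected only in parental ONC201. HSP90B1, MCM6, POLA2, PRIM1, VLDLR, CD22, EGR1 and FOS were named outside this rule. The comparison, the gene lists and the named genes were chosen with earlier results of these data known. Promoter sequences were RefSeq's (GRCh38.p14), matched by symbol for 7635 of the 9453 genes. Alternatives were the background correction, normalization, offset, detection filter, choice of probe, arrays in the fit, replicate block, moderation, array weights, thresholds and leaving out each array.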

Additional observations from a re-analysis of the deposited data

Results flagged for a closer look

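The effect of ONC201 differed between the resistant and the parental line for 2886 genes by the test of the difference itself. Among them, effects that were not simply lost were few under the main rule, with 6 reversed ones. Their number depended on the setting, since reversed effects numbered 0 with the replicate block and 388 by the 95% interval of the resistant effect. In the reversed class, with a fall in resistant and a rise in parental cells, the difference was -1.52 for PCGF1, -1.27 for ACYP2, -1.13 for CNOT3, -1.1 for LTAP1, -1.07 for GATAD2B and -0.96 for ALG5. VEGFA kept part of its rise, with a difference of -0.56. MAZ and SSBP3 fell further in resistant cells on the probes used, with differences of -0.6 and -0.48. Their other detected probes gave resistant effects that were not called. The cause of these differences was not tested.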

How the results depend on the processing

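Most 2-fold parental changes stayed lost under every alternative, while the number of lost genes, and more so the small classes, moved with the setting. Of the 2545 lost genes, 48.5% were also lost at a threshold of 0.01, 58.2% with no filter, 68.8% to 77.8% with 1 array left out and 85% to 98.8% under the other alternatives. Resistant effects were called for 46 genes, but for 0 with neqc over the 8 arrays alone, with no filter, with the replicate block and at a threshold of 0.01. The count was 418 with no background correction, 454 with an offset of 50, 312 with detection on all 8 arrays, 15 with every detected probe as its own feature, 604 with all 28 arrays in 1 fit, 702 with trend and robust moderation and 88 with array weights. Across the same settings in the same order, kept effects numbered 0, 111, 116, 83, 1, 153, 172 and 24, and reversed effects 0, 73, 80, 66, 3, 136, 152 and 12, with 381 and 388 by the 95% interval. Untreated differences numbered 148 with no filter, 623 with all 28 arrays, 566 with trend and robust moderation and 101 at 0.01. Undecided effects numbered 2751 with no filter and 2760 with every probe. At 0.01 the difference was called for 1332 genes, the parental effect for 2696 and 1239 effects were lost. The share of lost 2-fold changes was 91.2% at 0.01, 89.7% with no filter, 92.7% by the interval and 92.2% with a remaining share under 0.25. The remaining share of the falls was 0.032 with neqc over 8 arrays and with detection on all 8, 0.029 with no background correction and with the authors' background-subtracted table, 0.03 with the authors' normalized values, 0.014 with no filter and 0.013 with every probe.

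Leaving out 1 array gave 2049 to 2433 differences with 52.4% to 54.2% negative, 3045 to 4138 parental effects, 0 resistant effects, 106 to 323 untreated differences, 1831 to 2094 lost effects, 1213 to 2194 undecided ones, 0 kept and 0 reversed. It gave 94.8% to 98.2% of 2-fold changes lost, with remaining shares of 0.017 to 0.033 for rises and 0.012 to 0.037 for falls. Among named genes, the sign of the difference turned for PTMA (0.05 with the authors' normalized values and -0.16 to 0.14 with 1 array left out) and ZNF143 (0.02 with the authors' normalized values), neither of them called there. Of 103 named genes with a called difference, 92 were called at an adjusted p under 0.05 under every alternative. The exceptions over 21 alternatives were VEGFA (called in 10), CLPX (11), MAZ (12), MCM6, MKI67 and SSBP3 (13 each), CCND1 and EIF2AK3 (16 each), PRIM1 and DUSP2 (18 each) and ASNS (20). These counts took an adjusted p under 0.05 throughout, so the alternative threshold of 0.01, which repeats the main fit, counted as called. Same-numbered arrays did not deviate together (correlations of -0.089 to 0.082), so the replicate numbers were not taken as pairs. With 2 arrays a group, small resistant effects were near the limit of what could be called.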
